A study of Mus musculus with 4 samples.

Results

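Loss of the de novo DNA methyltransferases Dnmt3a and Dnmt3b was compared with the wild type in neural progenitor cells (NPCs) at day 6 of differentiation from mouse embryonic stem (ES) cells. The genes described are those at 1 FPKM or more (fragments per kilobase of transcript, scaled to library size) in at least 1 of the libraries WT_NP and DKO_NP, which held for 13601 of 23235 gene symbols. Near that limit the values of the higher library ran on without a gap, from 0.999541 FPKM just outside to 1.00031 FPKM just inside. Between 0.5 and 1 FPKM stood 1313 genes that were left out, and between 1 and 2 FPKM stood 1436 that were kept.

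The study sequenced rRNA-depleted total RNA from 4 cultures, with 1 library each, in a series on CpG islands inside genes. WT_ES was wild type, with the J1 background (strain 129S4/SvJae). DKO_ES lacked Dnmt3a and Dnmt3b. Both ES lines were grown in serum and leukemia inhibitory factor, first on irradiated feeder cells and then on gelatin without feeders for the last passages, and gave the day 0 libraries. WT_NP and DKO_NP came from these lines by 4 days as embryoid bodies, floating clusters of differentiating cells, and 2 further days with retinoic acid. The number of knockout clones is not given in the sources used here. Each group holds 1 library, so no difference below has a replicate check or a test, and the 95% intervals beside folds cover the counting error of approximate read numbers only. Any difference between the lines or the cultures themselves cannot be told apart from the genotype.

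Dnmt3a and Dnmt3b place methyl groups on CpG sites that carry none, and Dnmt1 copies the pattern after replication. In the early embryo the de novo enzymes methylate the CpG-rich promoters of a set of germ cell genes, one parental copy of some imprinted control regions, and much of the remaining genome. Methylated promoters of this kind are as a rule silent in somatic cells.

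The transcripts of the targeted genes were present at lower levels in DKO_NP. Dnmt3a stood at 17.2 FPKM (WT_NP) against 4.14 (DKO_NP), 5.64-fold lower (5.28 to 6.02). Dnmt3b stood at 9.98 and 5.22 FPKM, 2.59-fold lower (2.31 to 2.90). Neither transcript was absent, and a value per gene does not show which exons were read. Among 15 other genes of the methylation machinery, Dnmt3l, a cofactor of the de novo enzymes without activity of its own, was the single member at least 2-fold higher, at 1.73 FPKM (WT_NP) against 12.4 (DKO_NP). Zfp57, which protects methylation at imprinted regions, stood at the 2-fold limit, at 13.8 and 8.89 FPKM, with a log2 ratio of -1.0001 that was -0.58 as deposited and -0.99 under a median ratio over the NPC columns alone. As deposited 3 of the 15 were higher and 0 lower. The list had a median log2 ratio of -0.06, which was 0.34 without scaling. Dnmt1, at 53.9 and 113 FPKM, and its partner Uhrf1, at 51.2 and 118, had log2 ratios of 0.63 and 0.77. The demethylating enzymes Tet1, Tet2 and Tet3 had log2 ratios of -0.82, -0.98 and -0.56.

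Among the 13601 genes, 648 (4.76%) had at least 2-fold more RNA in DKO_NP and 1087 (7.99%) at least 2-fold less. Ratios are log2 of (FPKM + 1) in DKO_NP over (FPKM + 1) in WT_NP after each library was divided by its median ratio to the 4-library geometric mean, and the pseudocount of 1 FPKM understates the differences of low genes. The scaling decides the balance: as deposited, 1382 genes were higher and 531 lower, a share of 72.2% higher against 37.3% after scaling, and the median over all genes was 0.39 against 0.01. Ratios below are relative to that shift. At 4-fold, 146 genes were higher and 230 lower, and at 8-fold 53 and 117. Of the 648 higher genes 345 were under 1 FPKM in WT_NP, and of the 1087 lower genes 401 were under 1 FPKM in DKO_NP. These passed the filter only through the other library, which fixes their direction. Of the lower genes 353 were microRNAs, other small RNAs or unnamed gene models, against 109 of the higher ones, which leaves 539 named genes higher and 734 lower. In the range of 100 FPKM or more, 140 of 847 genes were lower (16.5%), and 121 of those 140 were small RNAs or models. The genes listed at 0 in WT_NP were 49 of the higher ones, and 91 of the lower ones were listed at 0 in DKO_NP; a 0 in such a table can be a failed estimate, and no fold is given against it.

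**Figure D1:**
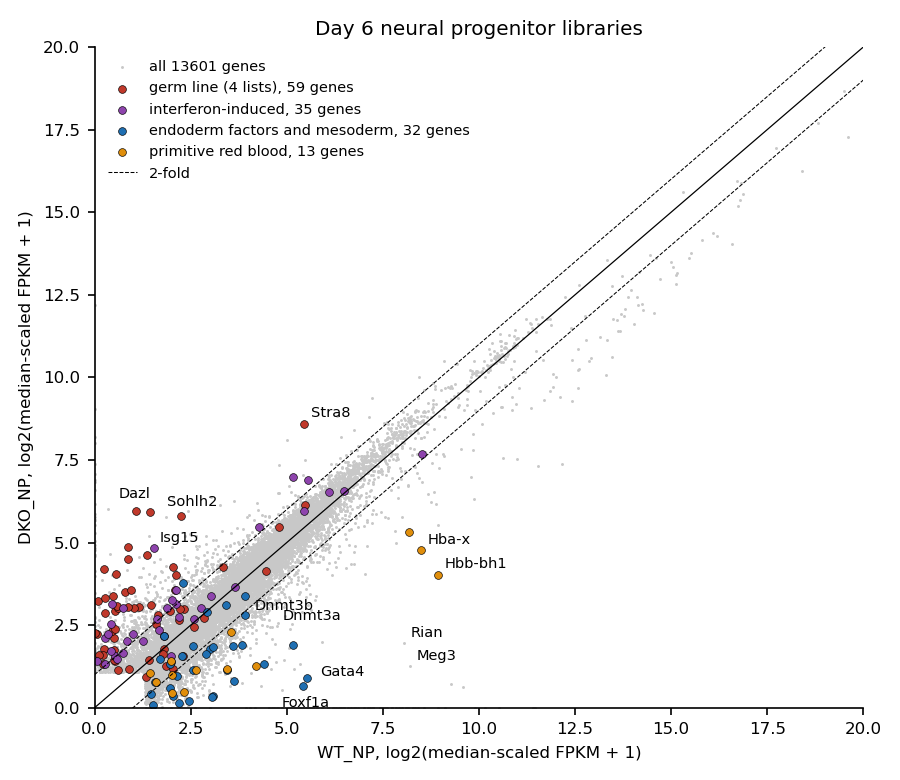
Each point is 1 of the 13601 genes, with log2 of (median-scaled FPKM + 1) in WT_NP on the horizontal axis and in DKO_NP on the vertical axis, 1 library each; dashed lines mark 2-fold. Germ line and interferon-induced genes lie mostly above the upper line or between the lines, while endoderm, mesoderm and red blood cell genes lie mostly below the lower line, as with Gata4 at 30.4 and 0.779 FPKM.

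Levels as deposited in all 4 libraries describe the higher and the lower set. The higher genes had a median of 3.35 (WT_ES), 0.850 (WT_NP), 6.04 (DKO_ES) and 6.68 FPKM (DKO_NP). WT_NP was thus the library with the lowest median. The DKO_NP median lay near that of the DKO_ES library, but only without scaling. The scale factors, 1.25 for DKO_ES and 0.908 for DKO_NP, set these medians further apart, with DKO_NP the higher. The lower genes had a median of 2.06 (WT_ES), 5.88 (WT_NP), 1.74 (DKO_ES) and 1.64 FPKM (DKO_NP), so that WT_NP was the library with the highest median. In WT_ES 67.1% of the higher genes and 65.4% of the lower genes reached 1 FPKM, against 90.3% of all 13601. Since the ratio of WT_NP to DKO_NP chose both sets, their NPC values are a description.

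Germ line genes stood higher in DKO_NP. The 4 lists that were read were those of germ cell regulators, meiotic chromosome genes, the piRNA pathway that silences transposons, and genes transcribed in the testis. They were chosen with earlier results of these data known, so the counts over them are a description. Of the 77 members found 59 reached 1 FPKM, 36 were at least 2-fold higher and 0 lower, where 4.76% of all genes were higher. Of the 36, 27 were under 1 FPKM in WT_NP and passed the filter only through DKO_NP, so that their direction was fixed by it. With 1 FPKM required in both libraries, 9 of 27 members were higher and 0 lower. In bulk RNA, more cells of a type and more RNA per cell cannot be told apart.

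The regulators included the highest log2 ratio of the named genes. Dazl, an RNA-binding protein needed for germ cell development, stood at 9.22 (WT_ES), 0.733 (WT_NP), 22.0 (DKO_ES) and 55.7 FPKM (DKO_NP), and was 56.1-fold higher in DKO_NP than in WT_NP (43.7 to 73.1). Sohlh2, a transcription factor of early germ cells, stood at 16.5, 1.16, 21.5 and 54.0 FPKM in the same order, 34.4-fold higher (26.6 to 44.8). Its partner Sohlh1 stood at 0.0446 FPKM in WT_NP, about 1 read, and 7.66 in DKO_NP, with a ratio of 127 whose interval runs from 28.9 to 6503. Stra8, the retinoic acid target that marks entry into meiosis, was already at 28.8 FPKM in WT_NP and reached 352 in DKO_NP, 9.03-fold higher (8.50 to 9.61). For Dazl, Sohlh2 and Stra8 the DKO_NP library was the highest of the 4. Of the 12 regulators at 1 FPKM or more 7 were at least 2-fold higher and 0 lower (median log2 ratio 1.90, and 0.89 over all 15 found). The list is not uniform, since Kit, the receptor of migrating germ cells, had a log2 ratio of -0.32 (14 and 15.0 FPKM) and Nanos3 one of -0.72 (2.62 and 1.80).

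The promoters of the 6 germ line genes with the highest ratios among those that the RefSeq promoter table holds are shown because CpG sites are what the missing enzymes act on. Each runs 5′ to 3′ from 250 bases before the start of transcription to 50 after it, on build GRCm38.p6, with every CpG in capitals. Dazl lies at chr17:50293571-50293870 on the minus strand, Sohlh2 at chr3:55181794-55182093 on the plus strand, Tuba3a at chr6:125286032-125286331 on the minus strand, Tuba3b at chr6:145615713-145616012 on the plus strand, Fkbp6 at chr5:135349995-135350294 on the minus strand and Tex19.1 at chr11:121145893-121146192 on the plus strand.
Dazl: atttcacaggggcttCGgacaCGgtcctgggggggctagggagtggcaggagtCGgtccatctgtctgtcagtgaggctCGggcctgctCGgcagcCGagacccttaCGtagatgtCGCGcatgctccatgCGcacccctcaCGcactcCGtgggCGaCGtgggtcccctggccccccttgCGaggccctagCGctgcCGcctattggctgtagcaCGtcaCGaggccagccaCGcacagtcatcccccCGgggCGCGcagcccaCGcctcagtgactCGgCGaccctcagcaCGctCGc
Sohlh2: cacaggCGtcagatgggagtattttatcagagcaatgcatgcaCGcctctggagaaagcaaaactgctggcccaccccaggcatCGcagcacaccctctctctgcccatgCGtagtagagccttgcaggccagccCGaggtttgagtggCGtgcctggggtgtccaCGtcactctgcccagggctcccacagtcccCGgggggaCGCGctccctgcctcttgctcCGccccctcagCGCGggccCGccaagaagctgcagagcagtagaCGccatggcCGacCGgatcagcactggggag
Tuba3a: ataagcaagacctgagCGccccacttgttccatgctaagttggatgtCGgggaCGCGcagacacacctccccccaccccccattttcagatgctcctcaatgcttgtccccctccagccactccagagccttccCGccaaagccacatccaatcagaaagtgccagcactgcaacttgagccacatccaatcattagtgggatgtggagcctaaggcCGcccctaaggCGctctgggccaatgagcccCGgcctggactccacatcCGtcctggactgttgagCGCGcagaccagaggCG
Tuba3b: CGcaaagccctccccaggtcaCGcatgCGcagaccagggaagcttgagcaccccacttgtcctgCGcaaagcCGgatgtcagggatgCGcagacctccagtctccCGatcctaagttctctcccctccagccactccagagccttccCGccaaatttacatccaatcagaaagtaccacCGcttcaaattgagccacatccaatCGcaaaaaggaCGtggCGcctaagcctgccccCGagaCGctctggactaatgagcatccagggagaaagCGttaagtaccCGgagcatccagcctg
Fkbp6: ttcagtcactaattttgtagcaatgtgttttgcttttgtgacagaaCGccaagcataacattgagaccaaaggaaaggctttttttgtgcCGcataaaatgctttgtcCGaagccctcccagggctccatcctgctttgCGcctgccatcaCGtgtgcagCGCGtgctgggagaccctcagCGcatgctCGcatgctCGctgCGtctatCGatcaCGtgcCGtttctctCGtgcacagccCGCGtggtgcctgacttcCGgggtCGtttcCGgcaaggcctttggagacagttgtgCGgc
Tex19.1: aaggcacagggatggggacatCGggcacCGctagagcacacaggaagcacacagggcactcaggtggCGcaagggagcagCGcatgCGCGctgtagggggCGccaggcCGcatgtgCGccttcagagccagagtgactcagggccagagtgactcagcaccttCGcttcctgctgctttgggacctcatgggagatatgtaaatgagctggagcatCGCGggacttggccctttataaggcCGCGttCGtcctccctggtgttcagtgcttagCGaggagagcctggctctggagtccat
The 300 bases hold 28 CpG sites in Dazl, 17 in Sohlh2, 12 in Tuba3a, 16 in Tuba3b, 21 in Fkbp6 and 16 in Tex19.1, where the median over all 27025 promoters of the table is 7. The table lists 2 starts for Fkbp6, of which the first is shown.

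Promoters were found for 66 of the 77 germ line members (85.7%). Those of 30 members at least 2-fold higher had a median ratio of observed to expected CpG of 0.658, and those of the 36 other members one of 0.644. A ratio of 0.6 or more was reached by 17 of the 30 (56.7%), by 19 of the 36 (52.8%) and by 36.5% of all promoters. Over all promoters of the table the median was 0.389. The hexamer CACGTG, an E-box that reads the same on both strands, was found in 9 of the 30 (30.0%), in 8 of the 36 (22.2%) and in 7.24% of all promoters. Fkbp6 holds 2 copies of it. The heptamer GGCGGGA, searched on both strands and able to share 1 end base with the E-box, was found in 8 of the 30 (26.7%), in 2 of the 36 (5.56%) and in 11.4% of all, with 1 copy each in Tuba3a and Tuba3b. A match describes these letters in this window and is not a bound site. Promoters of the 648 higher and the 1087 lower genes as a whole were not compared, because the table covers 72.8% and 59.2% of them, less than the 80% set for such a check.

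Genes of meiosis and of transposon silencing stood higher with the regulators. Among 20 meiotic chromosome genes, 11 passed 2-fold upward and 0 downward (median 1.12, and 0.95 over all 24 found), 10 of the 11 from under 1 FPKM in WT_NP. Hormad1, which binds unpaired chromosome axes, stood at 0.259 FPKM (WT_NP) against 8.54 (DKO_NP), 24.4-fold higher (13.1 to 51.8). Syce1, of the central element that joins paired chromosomes, stood at 0.480 and 9.43 FPKM, and Tex11, an X-linked gene of crossing over, at 0.298 and 5.99. In WT_ES Hormad1 stood at 16.7 FPKM, Syce1 at 19.4 and Tex11 at 10.5, each above its DKO_NP value. Not every step of meiosis was represented: Spo11, the enzyme that cuts DNA to start recombination, stood at 0.0346 FPKM in WT_NP and was listed at 0 in DKO_NP, and Dmc1, which repairs those cuts, had a log2 ratio of -0.01 (1.65 and 2.22 FPKM).

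Of 14 piRNA pathway genes 9 passed 2-fold upward and 0 downward (median 1.75, and 0.79 over all 20 found), 6 of the 9 from under 1 FPKM in WT_NP. Tex19.1, which restrains transposons in germ cells and placenta, stood at 2.49 FPKM (WT_NP) against 50.0 (DKO_NP), 14.8-fold higher (12.1 to 18.2). Mael stood at 0.631 and 9.78 FPKM and Gtsf1 at 0.327 and 6.69, both cofactors of piRNA silencing. The helicase Mov10l1, counted in the meiotic and the piRNA list, stood at 0.346 and 6.42 FPKM. In WT_ES Tex19.1 stood at 64.5 FPKM, Mael at 37.5, Mov10l1 at 11.2 and Gtsf1 at 6.38. Of the PIWI proteins that carry piRNAs, Piwil2 stood at 0.246 and 3.67 FPKM, while Piwil1 (0.0452 and 0.253) and Piwil4 (0.00994 and 0.705) stayed under 1 FPKM in both.

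In the testis list 11 of 15 members passed 2-fold upward and 0 downward (median 2.27, and 1.44 over all 20 found), 10 of the 11 from under 1 FPKM in WT_NP. Tuba3a, a testis tubulin, stood at 0.556 FPKM (WT_NP) against 25.8 (DKO_NP) and its close copy Tuba3b at 0.124 and 15.6, and reads of the pair may have been split between them. Fkbp6, a chaperone gene of meiotic cells, stood at 0.549 and 19.5 FPKM, 26.3-fold higher (16.9 to 41.5). The deubiquitinase Usp26, on chromosome X, stood at 0.320 and 14.1 FPKM, a 32.6-fold difference (22.5 to 48.1). In WT_ES Tuba3a stood at 26.3 FPKM, Tuba3b at 1.07, Fkbp6 at 9.78 and Usp26 at 4.26. Pgk2, a sperm glycolysis enzyme, was listed at 0 in both libraries. Tuba1a, a tubulin of neural cells, had a log2 ratio of 0.51 (86.6 and 168 FPKM).

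**Figure D2:**
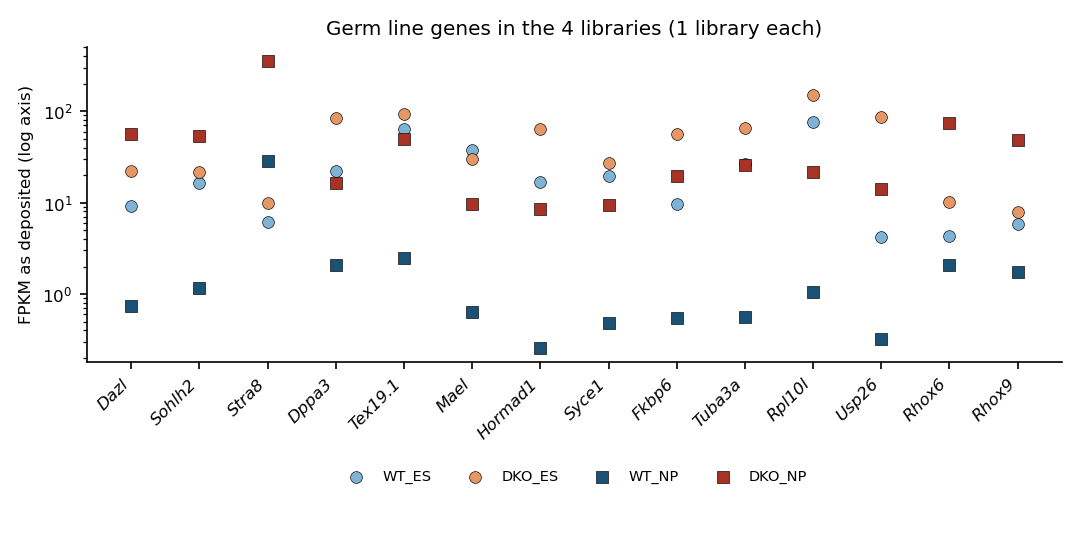
FPKM as deposited on a log axis for 14 germ line and Rhox genes in the 4 libraries, 1 point per library. WT_NP is the lowest point for 13 of the 14 genes, the exception being Stra8 at 28.8 FPKM, and DKO_NP is above WT_NP for each gene shown.

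The X-linked Rhox homeobox genes, expressed in germ line and placenta, held 8 members that reached 1 FPKM, all at least 2-fold higher. Of these 6 passed only through DKO_NP, which fixes their direction, and the median over all 19 found was 0.72. Rhox6 stood at 2.08 FPKM (WT_NP) against 75.1 (DKO_NP), 26.6-fold higher (20.02 to 36.7), and Rhox9 at 1.75 and 48.8, 20.6-fold higher (16.8 to 25.5). Rhox13 stood at 0.276 and 10.2 FPKM. Of the 19 members found 10 were listed at 0 in WT_NP and 2 in DKO_NP, and since the copies of this cluster are similar the reads of single members are uncertain. Cleavage-stage genes, read in embryos of a few cells and in rare ES cells, were at least 2-fold higher in 6 of 11 members and lower in 0 (median 1.35). All 6 were under 1 FPKM in WT_NP and passed through DKO_NP; with 1 FPKM required in both libraries 0 of 2 members were higher, and with a pseudocount of 5 FPKM 0 of 11. Zscan4c stood at 0.70 and 4.81 FPKM and Tdpoz4 at 0.0798 and 2.31, again among close copies. In WT_ES Zscan4c stood at 11.1 FPKM and Tdpoz4 at 0.909.

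Neural progenitor genes were present in both libraries and stood higher in DKO_NP. Of the 29 markers at 1 FPKM or more 13 were at least 2-fold higher and 0 lower, with a median log2 ratio of 0.70. Of the 13, 2 passed the filter only through DKO_NP. The sum over the 32 markers, as deposited and without scaling, was 343 FPKM in WT_NP and 758 in DKO_NP. Sox1, which marks the earliest neural plate, stood at 4.33 and 18.3 FPKM, Pax6 at 13.1 and 34.9, and Nes, the intermediate filament of neural stem cells, at 19.3 and 60.8. As deposited, 20 of the 29 were higher in WT_NP than in WT_ES and 23 in DKO_NP than in DKO_ES. After scaling the count was 23 of the 29 in the wild type and 23 in the knockout. In unscaled values Sox1 (3.15 FPKM in WT_ES) and Nes (16.9) were little higher in WT_NP than in WT_ES. The scale factors, 1.32 for WT_ES and 0.671 for WT_NP, make these rises larger. Sox2, which ES cells also use, was lower (253 and 12.2). Pax6 (3.96 in WT_ES and 13.1 in WT_NP), Irx3 (0.682 and 14.1) and Meis2 (0.288 and 32.01) stood further apart. WT_NP also held markers of other lineages, given below. Fabp7, a lipid carrier of radial glia, stood at 0.823 and 13.2 FPKM, 11.8-fold higher (7.76 to 19.11). The POU factors Pou3f3 (1.53 and 11.9 FPKM) and Pou3f2 (2.25 and 15.0) were 5.74-fold (5.01 to 6.58) and 4.91-fold (4.31 to 5.60) higher. Dorsal factors were among the higher ones, with Zic1 at 3.55 and 17.96 FPKM and Pax3 at 3.15 and 13.1. Ventral factors were low, with Olig2 at 0.325 and 0.0627 FPKM and Nkx6-1 at 0.395 and 0.330. Meis2 went against the list with a log2 ratio of -0.97 (32.01 and 21.7 FPKM).

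Notch signalling, which keeps neural progenitors dividing, was described by ligands, receptors, modifiers and targets. Of 19 genes 7 passed 2-fold upward and 0 downward (median 0.48). The ligand gene Dll1 stood at 3.37 and 10.7 FPKM and Dll3 at 0.9502 and 6.84. Among receptors Notch1 had a log2 ratio of 1.04 (6.97 and 20.4 FPKM), while Notch2 and Notch3 had ratios of -0.50 and -0.53. Lfng, a glycosyltransferase that modifies the receptors, stood at 5.24 and 24.7 FPKM, 3.48-fold higher (3.05 to 3.98). The target Hes5 stood at 2.74 and 32.6 FPKM, 8.80-fold higher (6.99 to 11.1), and the feedback inhibitor Nrarp at 2.13 and 12.6, whereas Hey1, another target, had a ratio of -0.49. Hes1 and Rbpj, the DNA-binding partner of the receptor, had ratios of 0.46 and 0.05.

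Genes of early neurons stood higher in 16 of 29 members and lower in 3, with a median of 1.14. Of the 16, 10 were under 1 FPKM in WT_NP, and with a pseudocount of 5 FPKM 2 members were higher and 0 lower. The proneural factor Neurog1 stood at 1.09 and 9.37 FPKM, 6.33-fold higher (4.58 to 9.13), and Nhlh2 at 0.468 and 4.79. The neuronal tubulin Tubb3 stood at 5.05 and 29.7, and the filament gene Ina at 0.847 and 6.32. Tubb3 (59.0 FPKM in WT_ES and 71.9 in DKO_ES) and Ina (25.9 and 19.4) were higher in both ES libraries than in DKO_NP. Neurog1 (0.131 and 0.160) and Nhlh2 (0.0202 and 0.0743) were lower there. The 3 lower members were the transcription factors Isl1 (1.93 and 0.452 FPKM), Lhx1 (4.33 and 1.90) and Onecut2 (3.91 and 1.81), of which Isl1 is also a mesoderm and Lhx1 an endoderm member. Markers of mature neurons were low in both libraries, with Rbfox3 at 0.0949 and 0.175 FPKM and Snap25 at 0.341 and 0.658.

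Part of the pluripotency network was also higher in DKO_NP, though far under ES cell levels. Of 25 genes 9 passed 2-fold upward and 1 downward, with a median of 0.68, where 4.76% of all genes were higher and 7.99% lower. Sox2, at 12.2 and 56.2 FPKM, is counted among the higher genes of this list and of the neural progenitor list. Zfp42, a marker of naive ES cells, stood at 620 (WT_ES), 645 (DKO_ES), 4.36 (WT_NP) and 32.4 FPKM (DKO_NP). Dppa5a stood at 56.9 FPKM (WT_NP) against 266 (DKO_NP), and Dppa2 at 1.39 and 8.93. Pou5f1 stood at 11.04 and 23.4 FPKM, a log2 ratio of 0.61, and Nanog at 5.74 and 19.6, a ratio of 1.24. Tbx3 was the member lower at 2-fold, at 4.08 and 1.02 FPKM, and it was lower in DKO_ES as well (22.4 and 6.71). These markers moved with the germ line, cleavage-stage and neural lists, and their part in those differences was not tested. The median ratio of the pluripotency list between the ES libraries was -0.05.

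Hox genes, which give cells their position along the body axis, differed by cluster and by paralogue group. Of 20 at 1 FPKM or more 6 were at least 2-fold higher and 1 lower (median 0.41). Within the Hoxb cluster, Hoxb1 at the anterior end was lower, at 14.6 FPKM (WT_NP) against 7.23 (DKO_NP) (log2 ratio -1.34). Hoxb2, Hoxb3 and Hoxb4 had ratios of 0.51, 0.36 and 0.05. Hoxb5, Hoxb6, Hoxb7 and Hoxb8 were higher, with ratios of 1.21, 2.78, 1.72 and 2.43. Hoxb6 stood at 3.05 and 33.7 FPKM, 8.15-fold higher (6.79 to 9.80), and Hoxb8 at 1.31 and 13.5, 7.65-fold higher (6.05 to 9.90). Hoxa2, Hoxa3, Hoxa4 and Hoxa5 had ratios of -0.30, -0.14, 0.01 and 0.47. Hoxd3 and Hoxd4 had ratios of 1.09 and 1.55, with Hoxd4 at 11.1 and 45.9 FPKM. The more posterior genes Hoxa9, Hoxa10 and Hoxc10 stood under 0.06 FPKM in both libraries.

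**Figure D3:**
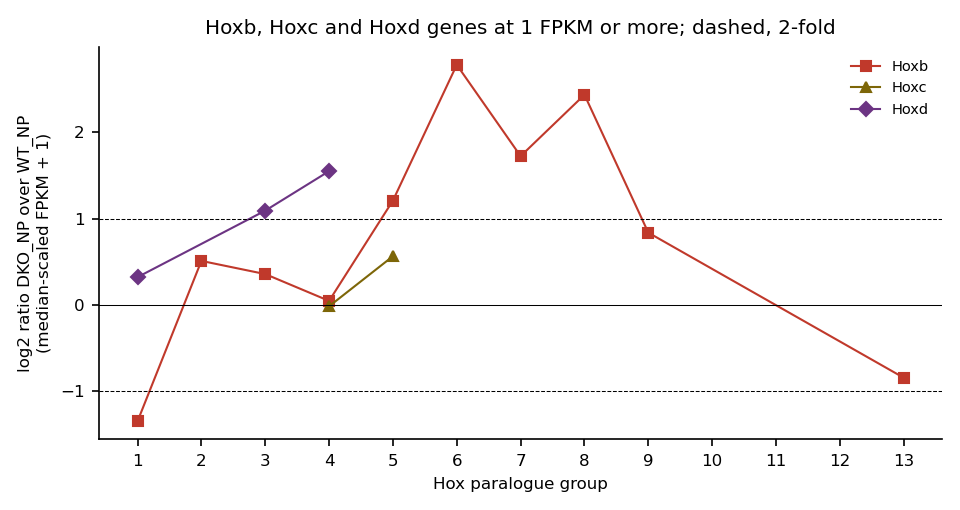
Log2 ratio of DKO_NP over WT_NP (median-scaled FPKM + 1) for the Hoxb, Hoxc and Hoxd genes at 1 FPKM or more, by paralogue group and cluster, 1 library a side; dashed lines mark 2-fold. In the Hoxb cluster the ratio goes from -1.34 at Hoxb1 to 2.78 at Hoxb6.

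Genes of the retinoic acid pathway, the inducing signal of this protocol, did not move together. Of 18 genes 1 was at least 2-fold higher and 5 lower, with a median of -0.34. As deposited 5 were higher and 2 lower, with a median of 0.073. The carrier gene Crabp2 stood at 253 and 718 FPKM, a log2 ratio of 1.07, and Crabp1 at 76.0 and 201, a ratio of 0.96. Rbp4, the retinol carrier of liver and yolk sac, was 7.12-fold lower (5.90 to 8.60), at 32.4 and 6.17 FPKM. Aldh1a2, which makes retinoic acid, stood at 6.35 and 1.83 FPKM, Cyp26b1, which degrades it, at 77.0 and 39.7, and Tgm2 at 33.6 and 18.3. Cyp26a1, another degrading enzyme, had a ratio of 0.71 (102 and 226 FPKM), and the receptors Rara, Rarb and Rarg had ratios of -0.24, -0.69 and -0.57.

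Endoderm and yolk sac genes stood lower in DKO_NP. Of 13 endoderm transcription factors and receptors at 1 FPKM or more 8 passed 2-fold downward and 1 upward (median -1.24), and as deposited 5 and 1. Of the 8, 3 were under 1 FPKM in DKO_NP, Gata4 among them, which fixes their direction. With 1 FPKM required in both libraries 5 of 10 were lower and 1 higher. The median over all 18 found was -0.73. Gata4 stood at 1.69 (WT_ES), 0.495 (DKO_ES), 30.4 (WT_NP) and 0.779 FPKM (DKO_NP), 52.8-fold lower between the NPC libraries (39.8 to 72.4). Gata6 stood at 23.3 and 2.45 FPKM, 12.9-fold lower (11.3 to 14.7), and the pioneer factors Foxa1 and Foxa2 at 8.91 and 2.49 and at 7.47 and 2.42. Sox17 did not follow, with a log2 ratio of -0.04 (4.44 and 5.82 FPKM), and the receptor Cxcr4, which neural and other cells also use, was the member that was higher (2.64 and 11.5 FPKM). Of 26 yolk sac protein genes 15 were lower and 1 higher (median -1.23). The higher member and 1 of the 15 passed the filter through 1 library alone. Apob, the protein of lipoprotein particles, stood at 10.3 and 1.83 FPKM, 7.66-fold lower (6.89 to 8.52), Apoa1 at 35.4 and 7.75, and Ttr, a hormone carrier, at 16.7 and 2.58. Afp, at 6.18 and 6.79 FPKM, had a ratio of -0.27. The iron carrier gene Trf was the member that was higher (0.829 and 7.01 FPKM).

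Mesoderm genes were lower in 14 of 19 members and higher in 0 (median -1.40), and 9 of the 14 were under 1 FPKM in DKO_NP. The lateral plate factor Foxf1a stood at 28.0 FPKM (WT_NP) against 0.530 (DKO_NP), 71.6-fold lower (45.9 to 117). Tbx20, a heart factor, stood at 4.95 and 0.236 FPKM, 28.4-fold lower (21.0 to 39.2), Osr1, of intermediate mesoderm, at 7.61 and 0.697, and the growth factor receptor Pdgfra at 13.5 and 1.37. The genes of nascent mesoderm were low in both, with T at 0.262 and 0.0380 FPKM and Mesp1 at 0.0554 and listed at 0. Wt1 (6.45 and 6.99 FPKM) and Twist1 (9.38 and 8.64) had ratios of -0.29 and -0.51.

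Blood vessel genes were lower in 12 of 21 members and higher in 0 (median -1.02). As deposited 4 were lower and 1 higher (median -0.64), and with a pseudocount of 5 FPKM 2 were lower. The receptor of vascular endothelial growth factor Flt1 stood at 9.58 and 2.43 FPKM, 5.34-fold lower (4.85 to 5.87), and its relative Kdr at 13.5 and 5.65. Pecam1 and Cd34, found on endothelium and on other cells, had ratios of 0.28 and 0.83. Primitive red blood cell genes were lower in 10 of 13 members and higher in 0, with the lowest median of the lists on other lineages, -1.57. Of the 10, 3 were under 1 FPKM in DKO_NP, which fixes their direction. The median over all 19 found was -1.04. The embryonic globins Hbb-bh1 (328 and 13.9 FPKM), Hba-x (242 and 23.8) and Hbb-y (193 and 35.3) were all lower, by folds of 32 (26.9 to 38.4), 13.8 (12.4 to 15.4) and 7.42 (6.63 to 8.31) in that order. Of the adult globins Hba-a1 stood at 11.8 and 1.26 FPKM, 12.6-fold lower (7.56 to 22.4), and Hbb-b2 at 0.690 and 0.0847, while Hba-a2 and Hbb-b1 were under 0.2 FPKM in both. Sums over each list are as deposited, and scaling would make the falls larger and the neural rise smaller. Red blood genes made up 806 FPKM in WT_NP and 85.6 in DKO_NP, mesoderm genes 115 and 34.4, and endoderm factors 99.5 and 39.2. Yolk sac genes made up 763 and 456 FPKM, and vessel genes 151 and 102. The neural list, at 343 and 758 FPKM as deposited, moved the other way, and the part of these cell types in the neural or any other difference was not tested.

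**Figure D4:**
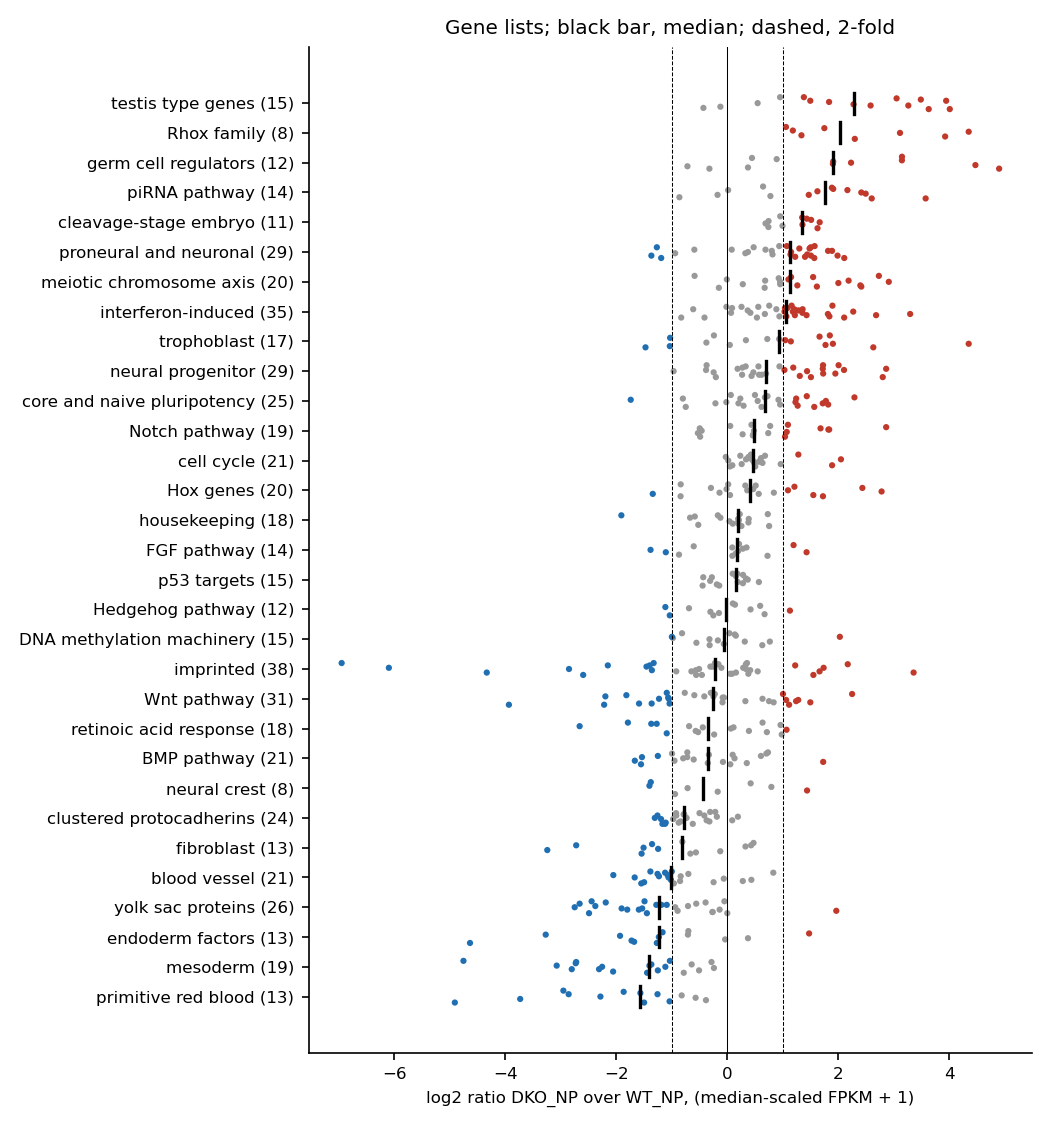
Log2 ratio of DKO_NP over WT_NP (median-scaled FPKM + 1) for each list member at 1 FPKM or more, with the number of such members in brackets, the list's median as a black bar and 2-fold as dashed lines; red points are at least 2-fold higher, blue points at least 2-fold lower. Medians run from 2.27 for testis genes to -1.57 for primitive red blood cell genes. The lists were chosen with earlier results of these data known.

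Stromal genes pointed the same way as mesoderm, with exceptions. Of 13 fibroblast genes 6 were at least 2-fold lower and 0 higher (median -0.81), and the list was lower between the ES libraries too, with 6 of 12 at 2-fold (median -1.13). Of the 6 that were lower between the NPC libraries, 2 were under 1 FPKM in DKO_NP, which fixes their direction. Col3a1 stood at 21.5 and 2.26 FPKM, 12.9-fold lower (11.6 to 14.4), Fn1 at 86.0 and 40.3, and Twist2 at 5.00 and 0.253, while Col1a2 had a ratio of 0.43 (6.23 and 11.7). Thy1 (0.189 and 0.206 FPKM) and Postn (0.796 and 0.815) were under 1 FPKM in both. Of 8 neural crest genes 1 was higher, Pax3, and 2 were lower, Ets1 (11.2 and 5.29 FPKM) and Snai2 (3.26 and 1.10), with a median of -0.45 that was 0.31 with a filter at 5 FPKM; the defining factors Sox10 and Foxd3 were under 1 FPKM in both libraries. Clustered protocadherins, which give neurons their surface identity, were lower in 6 of 24 members and higher in 0 (median -0.78). As deposited (median -0.45), and with a pseudocount of 5 FPKM, 0 of the 24 were lower. The 24 were mostly of the gamma cluster, with Pcdhgc3 at 14.2 and 7.88 FPKM and Pcdhgb6 at 3.38 and 1.31. All alpha members stood under 0.2 FPKM in both libraries.

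Trophoblast genes, of the outer lineage that forms the placenta, were split. Of 17 members 8 were at least 2-fold higher and 3 lower (median 0.93), and as deposited 8 and 1. Of the 8, 2 passed the filter only through DKO_NP, and of the 3 lower, 1 only through WT_NP, which fixes their direction. Plac1 stood at 1.12 and 14.1 FPKM, 9.30-fold higher (6.55 to 13.6), Esx1 at 0.623 and 5.39, and Tfap2c, also a germ cell regulator, at 2.27 and 13.9. Rhox6 is counted in this list as well as in its family. The lineage's factor Cdx2 was lower (2.49 and 0.631 FPKM), as were the keratins Krt8 (167 and 110) and Krt18 (214 and 141). Hand1 had a ratio of -0.24 (1.51 and 1.59 FPKM) and Prl3d1, a hormone of giant cells, was listed at 0 in WT_NP and stood at 0.156 in DKO_NP.

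Genes induced by interferon, the signal cells send on sensing viral nucleic acids, were at least 2-fold higher in 20 of 35 members and lower in 0, with a median of 1.06. Of the 20, 11 were under 1 FPKM in WT_NP; with 1 FPKM required in both libraries 9 of 21 were higher, and with a pseudocount of 5 FPKM 6 of 35. Isg15, a ubiquitin-like protein, stood at 1.27 FPKM (WT_NP) against 24.9 (DKO_NP), 14.5-fold higher (9.20 to 23.0). Rtp4 stood at 0.247 and 7.06 FPKM, 21.1-fold higher (11.7 to 40.8), Oasl2 at 0.453 and 6.42, and Ifit1 at 0.238 and 4.39. Ifi27l1, a gene outside the list with the fourth highest ratio of the named genes, stood at 0.212 and 21.9 FPKM, 76.4-fold higher (36.7 to 191). The RNA sensors Ddx58 (2.24 and 7.15 FPKM) and Ifih1 (0.132 and 1.36) were higher at 2-fold. Stat2, Irf9 and Irf7 had ratios of 0.25, 0.37 and 0.75, and Mx1 stood under 1 FPKM in both libraries. Between the ES libraries 2 of 30 members were at least 2-fold higher and 0 lower, with a median of 0.26. Whether the ratio differed between day 0 and day 6 could not be tested with 1 library a group.

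Imprinted genes, of which a parent's copy is silenced, held the lowest ratios of the lists and some high ones. Of 38 genes 6 passed 2-fold upward and 10 downward, with a median of -0.23 that was 0.16 without scaling. Of the 6, 2 passed the filter only through DKO_NP, and of the 10, 3 only through WT_NP, which fixes their direction. In the Dlk1 to Dio3 cluster the maternally expressed RNAs without protein product were lower: Meg3 stood at 199 FPKM (WT_NP) against 1.27 (DKO_NP), 211-fold lower (191 to 235), Rian at 177 and 2.60, 92.2-fold lower (85.7 to 99.3), and Mirg at 19.08 and 0.415. The 3 were already lower in the ES cells, with Meg3 at 118 FPKM (WT_ES) against 7.16 (DKO_ES), Rian at 189 and 9.70, and Mirg at 18.8 and 0.854, folds of 15.6, 18.5 and 20.8. The paternally expressed Dlk1 (20.3 and 24.4 FPKM) and Dio3 (1.02 and 2.06) had ratios of -0.16 and 0.38, and Rtl1, which overlaps an antisense transcript, one of -2.85 (7.04 and 0.536). Without strand, its reads and those of its antisense partner cannot be told apart.

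Genes of other imprinted clusters differed among themselves. Phlda2, which limits placental growth, stood at 143 (WT_ES), 133 (DKO_ES), 4.76 (WT_NP) and 74.4 FPKM (DKO_NP), 11.5-fold higher between the NPC libraries (9.56 to 14.03). Its neighbours Cdkn1c, a cell cycle inhibitor (17.6 and 81.2 FPKM), Slc22a18 (0.477 and 6.08) and Ascl2 (0.395 and 3.65) had ratios of 1.73, 2.17 and 1.66. Kcnq1ot1, the paternal RNA of the same domain, stood at 12.9 and 6.39 FPKM, a ratio of -1.33. In the adjoining domain H19 stood at 233 and 927 FPKM (ratio 1.55) and the growth factor gene Igf2 at 192 and 94.0 (ratio -1.46). The same pair had ratios of 1.03 and -1.33 between the ES libraries. Peg3 (191 and 97.2 FPKM) and its neighbours Zim1 (22.8 and 4.34) and Usp29 (2.26 and 0.634) were lower, with ratios of -1.40, -2.60 and -1.36. Airn, the RNA that overlaps Igf2r, stood at 15.7 and 4.07 FPKM, a ratio of -2.15, and Igf2r at 52.8 and 45.3, a ratio of -0.65. Snrpn, Peg10 and Mest had ratios of -0.27, 0.33 and 0.05.

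Signalling pathways were mixed within themselves. Of 31 Wnt genes 7 passed 2-fold upward and 11 downward (median -0.25), and as deposited 9 and 5 (median 0.087). Of the 7, 2 passed the filter only through DKO_NP, and of the 11, 3 only through WT_NP, which fixes their direction. Among ligands the dorsal neural Wnt1 (1.96 and 6.80 FPKM) and Wnt3a (0.835 and 3.90) were higher, and Wnt2 (2.66 and 0.0733) and Wnt5a (2.48 and 1.12) lower. Among receptors Fzd10 was 5.47-fold higher (4.78 to 6.28), at 3.49 and 25.8 FPKM, and Fzd4 5.22-fold lower (4.79 to 5.69), at 23.1 and 6.00. The secreted inhibitor Sfrp5 stood at 40.0 and 2.68 FPKM, 20.2-fold lower (16.1 to 25.6), and Sfrp1 at 50.1 and 18.6, whereas Sfrp2 stood at 8.21 and 28.2. The feedback target Axin2 had a ratio of 0.75.

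Of 21 genes of the bone morphogenetic protein (BMP) pathway 1 was higher and 4 were lower (median -0.35), and as deposited 2 and 3. The ligands Bmp2 (3.67 and 1.09 FPKM), Bmp4 (5.03 and 2.33) and Bmp5 (2.31 and 0.361) and the decoy receptor Bambi (5.07 and 1.77) were lower, and Msx1, a target and dorsal neural factor, higher (1.27 and 7.80). The targets Id1 and Id3 had ratios of 0.09 and 0.05. Of 12 Hedgehog genes 1 was higher and 2 lower (median -0.03), as deposited 3 and 0 (median 0.36), with the ligand Ihh at 4.76 and 2.67 FPKM, the receptor and target Ptch1 at 39.6 and 24.2, and the co-receptor Gas1 at 25.5 and 76.6. Of 14 genes of fibroblast growth factor signalling 2 were higher and 2 lower (median 0.17). The 2 lower ones, Fgfr4 among them, were under 1 FPKM in DKO_NP, which fixes their direction. With 1 FPKM required in both libraries 0 were lower. The receptors of this pathway differed, with Fgfr3 at 4.93 and 16.4 FPKM, Fgfr4 at 2.57 and 0.773, and Fgfr1 and Fgfr2 at ratios of 0.28 and 0.15. Over all 13601 genes 4.76% were higher and 7.99% lower, so counts of 1 or 2 in lists this small are values only.

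In the cell cycle list (median 0.46) 3 of 21 members passed 2-fold upward and 0 downward, and as deposited 7. The 3 were the cyclins Ccnd1 (5.97 and 36.2 FPKM) and Ccne1 (14.8 and 50.0) and the inhibitor gene Cdkn2a (2.21 and 13.5), while Mki67 had a ratio of 0.04. None of 15 targets of the tumour suppressor p53 was past 2-fold (median 0.15), with Cdkn1a at 14.1 and 13.8 FPKM. With 4.76% of all genes higher and 7.99% lower, a count of 0 in a list this small is a value only. Of 18 housekeeping genes 0 were higher and 1 was lower (median 0.19). The lower one, the mitochondrial ligase gene Lars2, stood at 3681 FPKM (WT_NP) against 1325 (DKO_NP) but was listed at 0 in WT_ES against 10341 FPKM in DKO_ES, so its values are uncertain.

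By chromosome, Y with its few measured genes apart, the share of higher genes was highest on X and that of lower genes on 12. On X the 2-fold limit was passed upward by 73 of 515 genes (14.2%) and downward by 30 (5.83%), and 41 of the 73 also passed 2-fold upward in DKO_ES over WT_ES. On chromosome 7, 76 of 1070 genes (7.10%) were higher. On chromosome 12, 77 of 510 genes (15.1%) were lower. Of these, 35 lay between Dlk1 and Dio3, among 38 measured there (median -6.55), and 31 of the 35 were small RNAs or models; outside that interval 42 of 472 genes (8.90%) were lower. Of the 35, 15 were also lower in DKO_ES. On Y 4 of 7 measured genes were higher. Kdm5d stood at 0.0241 (WT_ES), 4.42 (DKO_ES), 0.0597 (WT_NP) and 4.86 FPKM (DKO_NP). Usp9y (0.0184 and 2.03 at day 6), Zfy1 (0.0937 and 2.35) and Ube1y1 (2.82 and 11.5) were also higher in both knockout libraries. Ddx3y, Eif2s3y and Uty had ratios of 0.76, 0.26 and -0.46 at day 6, and of 0.86, 1.07 and 0.83 between the ES libraries. Kdm5d, Usp9y, Zfy1 and Ube1y1 thus separate the 2 lines on both days, and what sets the lines apart was not tested.

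**Figure D5:**
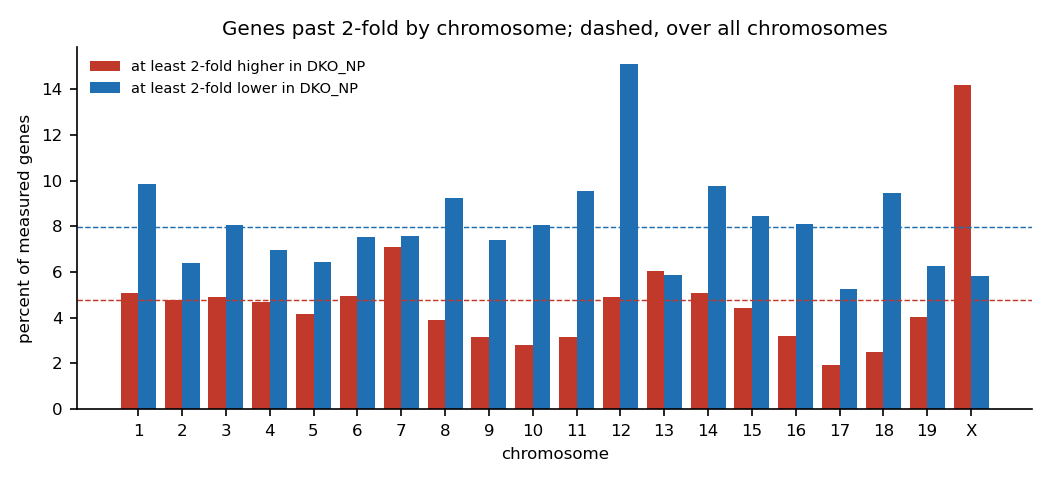
Percent of measured genes on each chromosome that were at least 2-fold higher (red) or lower (blue) in DKO_NP than in WT_NP, 1 library a side; dashed lines give the shares over all chromosomes, 4.76% and 7.99%. The red bar of X reaches 14.2% and the blue bar of 12 reaches 15.1%.

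The ES libraries, which share no library with the NPC comparison, show which of its genes also passed 2-fold before differentiation. Between them 348 of 13596 genes (2.56%) passed 2-fold upward in the knockout and 156 (1.15%) downward. Of these 124 were higher on both days, 19.14% of the NPC list and 35.6% of the ES list, and 48 were lower on both days, 4.42% and 30.8%. These shares count genes that missed the filter on the other day as not shared, so they understate the overlap among genes measured on both. Of the 348 and 156 ES genes, 264 and 131 reached 1 FPKM in an NPC library. In opposite directions went 7 genes that were higher in DKO_NP and lower in DKO_ES, and 25 that were lower in DKO_NP and higher in DKO_ES, among them many small RNAs. The NPC-higher genes that reached 1 FPKM in an ES library, 506 of them, had a median ES log2 ratio of 0.46, and 740 NPC-lower genes one of -0.05. By list, the ES medians were 1.56 for Rhox genes, 1.26 for testis genes and 0.18 for germ cell regulators. They were -0.01 for endoderm factors, -0.09 for mesoderm genes and 0.10 for neural progenitor genes. The neural and mesoderm lists rest on 19 and 5 members at that stage.

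Other genes among those with the largest ratios belong to no list. On the higher side stood Rpl39l, a ribosomal protein gene of the testis (1.13 and 32.6 FPKM), Amd1, an enzyme of polyamine synthesis (0.0894 and 12.3), Fam25c (2.96 and 54.9) and the pseudogene Atp6v0c-ps2 (0.826 and 20.8); Amd1 and the pseudogene have close copies, so their reads are uncertain. On the lower side stood Serpinf2, a liver inhibitor of plasmin (26.7 and 1.37 FPKM), Nepn (23.7 and 1.12), the matrix protein gene Tnc (12.9 and 0.528) and Clic6 (19.7 and 1.55). Rpl26 stood at 513 and 0.508 FPKM, but it has near-identical copies and 50 genes of large ribosomal proteins had a median of 0.10. The symbols LOC100861572 and LOC100861570 stood at 1869 and 170 FPKM in WT_NP and were listed at 0 in DKO_NP.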

How the data were processed

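RNA was measured in 4 libraries, 1 per group. Per the labels' protocols, rRNA was removed from 5 μg of total RNA, libraries followed the TruSeq guide, and reads were single-end of 50 cycles; no strand step is named. Per the submitters' processing notes, Bowtie, TopHat and mm9 were used; their versions, the annotation and the program behind the FPKM values were not given in the sources used here. The authors deposited FPKM per gene symbol, a unit normalized for length and library size; 18 rows without a symbol were left out and 0 columns were unmapped.

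Each column was divided by its median ratio to the 4-column geometric mean over genes at 1 FPKM or more in all 4 (0.671 for WT_NP, 0.908 for DKO_NP). The count threshold was a log2 ratio of 1 in size, with a pseudocount of 1 FPKM; folds of single genes use none. Depth was read from the steps of low FPKM: 1017 of 1479 low genes (68.8%) were whole reads within 1%, with a denominator 1.45 times as large in WT_NP. With exon lengths from GENCODE M21 this gave about 22.5 M and 15.5 M reads, a median of 789 and 722 reads per gene, and exact (Clopper-Pearson) 95% intervals, which are rough. The counting was checked on simulated data.

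Named genes are the targets, the 15 highest and 15 lowest ratios at 5 FPKM or more without small RNAs and models, and up to 4 members per list with the largest ratios; other members were picked after their values were seen, to show a list's range or roles. The members and the 32 lists (5 symbols not found, 8 under another symbol) were chosen with earlier results of these data known. Promoters are from RefSeq (GRCm38.p6), matched by symbol. A few members' own values are not reported here. Alternatives were other scalings, pseudocounts, filters and gene classes. Python 3.11.15, numpy 2.4.6, pandas 2.3.3, scipy 1.17.1 and matplotlib 3.10.9 were used.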

Additional observations from a re-analysis of the deposited data

Results flagged for a closer look

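Etv2, a factor of blood and vessel precursors, went opposite ways on the 2 days. Its levels were 1.43 (WT_ES) and 5.40 FPKM (DKO_ES), a log2 ratio of 1.35, and 3.12 (WT_NP) and 0.705 FPKM (DKO_NP), a ratio of -1.67. Lars2 had a ratio of -1.91 between the NPC libraries (3681 and 1325 FPKM) and the other direction between the ES libraries, where it was listed at 0 in WT_ES. In both genes the difference between days was not tested, since each group holds 1 library.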

How the results depend on the processing

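No paired analysis was possible because each group holds 1 library. Against 648 genes higher and 1087 lower, the counts were 1382 and 531 as deposited, 236 and 413 with a pseudocount of 5 FPKM, 384 and 595 with a filter at 5 FPKM, and 303 and 686 with 1 FPKM required in both libraries. They stayed within 1.5 times under a median ratio over the 2 NPC columns (570 and 978), upper quartile scaling (543 and 1025), a pseudocount of 0.1 FPKM (929 and 1543), no filter (648 and 1112), without small RNAs and models (539 and 734) and without genes listed at 0 (599 and 996). List medians that changed sign as deposited were those of the DNA methylation machinery (0.34), retinoic acid response (0.073), imprinted (0.16), Wnt (0.087) and Hedgehog (0.36) genes. That of neural crest genes was 0.049 with no filter, and with a filter at 5 FPKM those of neural crest (0.31), Wnt (0.13) and Hedgehog (0.12) genes changed sign. A scaling shifts every ratio and a filter drops genes by construction; beyond that the cause was not tested. Of the 134 genes named as targets or for the largest ratios, 0 changed sign under a setting that kept them. This does not test the other genes, since these were chosen for their ratios and a pseudocount or a filter cannot turn a sign. Genes with smaller negative ratios did change sign with the scaling. Kit, Dlk1, Wt1 and Afp, for example, stood higher in DKO_NP than in WT_NP as deposited. With 1 library a side, the depth gives counting intervals only, and genes of a few reads, such as Sohlh1 and Rhox1, have intervals too wide to rank them.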

Other observations

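Some gene families outside the lists were looked at after their values were seen, and are given as values. Placental hormones of the prolactin family reached 1 FPKM in 7 of 26 members, of which 5 were at least 2-fold higher in DKO_NP and 0 lower. Of the 5, all but Prl7d1 were under 1 FPKM in WT_NP and passed only through DKO_NP, which fixes their direction. Prl2c5 stood at 0.296 FPKM (WT_NP) against 4.79 (DKO_NP), and Prl7d1 at 1.04 and 5.87. Of the placental cathepsins Ctsj stood at 0.929 and 6.30 FPKM, and Ctsq was listed at 0 and stood at 1.19. Both likewise passed only through DKO_NP. These genes are known from placenta, among other tissues.

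Metallothioneins, small proteins that bind zinc and other metals, were at least 2-fold higher in each of the 3 members, of 4, that reached 1 FPKM. Over all genes 4.76% were higher. Mt4 stood near the limit, with a log2 ratio of 1.02, and Mt3, left out by the filter, had one of 0.43 (0.290 and 0.838 FPKM). Mt1 stood at 416 (WT_ES), 1061 (DKO_ES), 98.9 (WT_NP) and 600.2 FPKM (DKO_NP), and Mt2 at 473, 1303, 52.3 and 409. The X-linked Xlr genes were higher in each of 9 members that reached 1 FPKM. All 9 were under 1 FPKM in WT_NP and passed only through DKO_NP, which fixes their direction. The median log2 ratio was 1.79, and 2.20 between the ES libraries. Xlr3a, for example, stood at 0.503 FPKM (WT_NP) against 8.17 (DKO_NP). The copies of this family are similar and single values uncertain.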
